A study of Mus musculus with 16 samples.

Results

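The comparison described here sets macrophages sorted from pancreatic tumors against macrophages sorted from normal pancreas, within the cells that carry a yellow fluorescent protein (YFP) mark left by a Flt3-driven Cre recombinase. It uses 8 of the 16 arrays of the study, chosen by their labelled source: 5 of tumor YFP+ macrophages (mice 23547, 23548, 23550, 23551 and 23677) and 3 of normal pancreas YFP+ macrophages (mice 23912, 23916 and 23917). The other 8 arrays hold YFP- macrophages, 5 from tumor and 3 from normal pancreas. They enter the filter and choice of probes, the estimate of the spread and the side-by-side values near the end. All mice are labelled female, C57/B6 in background and 8 to 10 weeks old. Their genotype is not provided. The series text names wild-type, KPC and FLT3-CRE/LSL-YFP animals, and the treatment text says that tumors were implanted. The YFP+ label implies the FLT3-CRE/LSL-YFP alleles in every mouse used here, while the tumor line, the implantation site and the time after implantation are not given in the sources used here. A mouse with normal pancreas is taken here as a control without a tumor, and whether it had a mock operation is not stated. The number in each sample title was taken as the mouse, which the labels do not state, so that p-values measure the spread between these samples.

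FLT3 is a receptor tyrosine kinase of hematopoietic progenitors beyond the stem cell. A Flt3-Cre turns on a floxed-stop reporter in the progeny of those progenitors, so blood monocytes and the macrophages they give rise to become YFP+, whereas much of the macrophage pool seeded by the yolk sac stays unmarked. Pancreas macrophages of either origin clear debris, present antigen and secrete growth factors, and in pancreatic ductal adenocarcinoma they are a large part of the tumor's leukocytes.

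Each sample was hybridised alone in the red channel (Cy5) of an Agilent whole mouse genome array. A level below is the log2 processed signal minus that array's 75th percentile, so that 0 is the signal at that percentile and each unit is a doubling. Levels are compared between arrays for one probe, never between probes. The 75th percentile lay between 2824 and 3388 intensity units over the 8 arrays, between 67.1% and 72.8% of spots were well above background, and no spot was saturated. Across probes, arrays correlated at 0.946 to 0.977 within the tumor group, at 0.946 to 0.962 within the normal group and at 0.895 to 0.926 between them.

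The tumor and the normal arrays differed at 2978 of 24275 genes tested (12.3%) by limma's moderated test with a Benjamini-Hochberg adjusted p under 0.05. Of these, 1394 (5.74% of genes tested) were higher in tumor and 1584 (6.53%) were lower, and 2079 differed at least 2-fold. Changes of at least 16-fold numbered 222 among the genes that rose and 71 among those that fell. The median difference over all genes was -0.07, and the median standard error of a gene's difference was 0.31. The values of the tumor and normal groups did not overlap at 22.2% of all genes. Below, "rose" and "fell" are used of genes past that threshold, and each log2 difference is tumor minus normal. Where a gene lost its call under any of 20 alternative settings, the highest adjusted p among them is given beside it. Each array was a bulk RNA sample, so fewer cells of one type and less RNA per cell cannot be told apart. Leaving out normal mouse 23916 or 23917 left 993 or 997 genes lower in tumor in place of 1584.

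**Figure D1:**
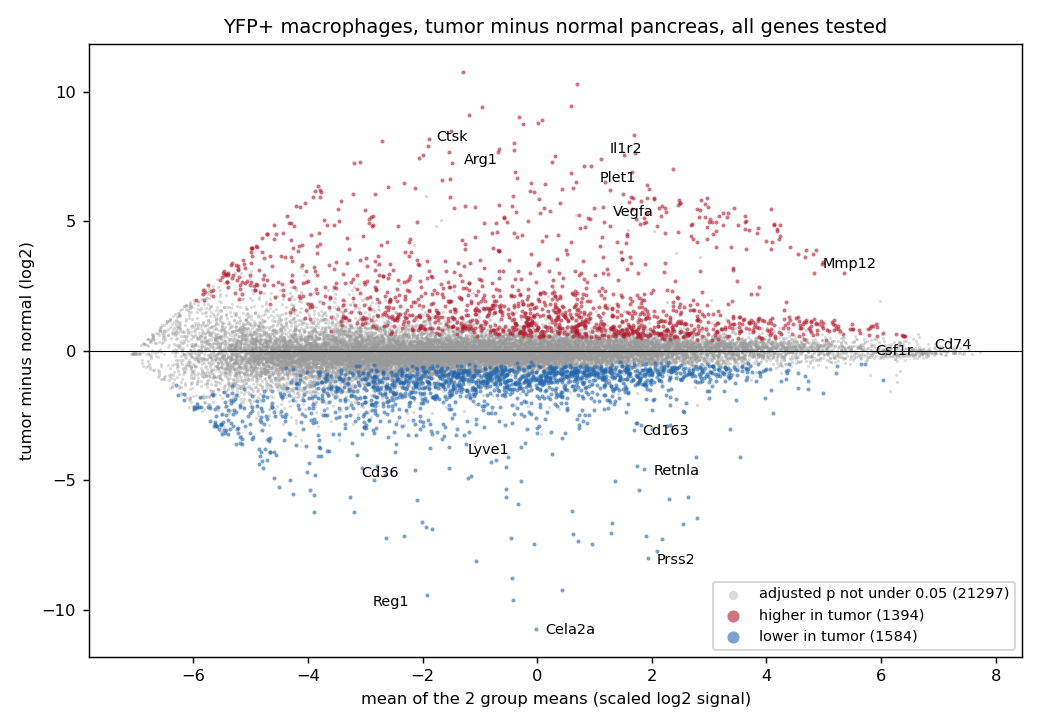
Log2 difference between tumor and normal YFP+ macrophages (vertical axis) against the mean of both group means (horizontal axis, log2 signal relative to the array's 75th percentile) for all 24275 genes tested, with the 2978 past the adjusted p threshold coloured by direction. The lowest points are genes of pancreatic acinar cells such as Cela2a, and the highest are gene models without a name.

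The labelled cell type was checked first. Of 20 macrophage identity genes, 2 rose and 3 fell, and 1 fell without normal mouse 23916 or without 23917. Itgam, which encodes CD11b, lay at 6.42, 6.77, 6.65, 7.06 and 6.62 in the tumor arrays and at 6.89, 6.56 and 6.56 in the normal arrays. Csf1r, the receptor through which colony-stimulating factor 1 sustains macrophages, lay between 5.21 and 5.71 in tumor and at 5.50, 6.19 and 6.10 in normal pancreas (difference -0.38, adjusted p = 0.40). Cd68, a lysosomal glycoprotein of macrophages, differed by -0.26 (adjusted p = 0.54), Spi1, which encodes the myeloid transcription factor PU.1, by 0.13 (adjusted p = 0.71) and Cx3cr1, a chemokine receptor, by -0.71 (adjusted p = 0.11). The mean level over 20 macrophage identity genes ran from 3.55 to 4.09 in tumor and from 3.53 to 4.09 in normal pancreas. Those that fell were Cd163, a hemoglobin scavenger receptor (-3.06, adjusted p = 0.0078), Adgre1, which encodes a surface antigen of mature macrophages (-0.97, adjusted p = 0.025; 0.11 without normal mouse 23917), and the lysozyme gene Lyz2 (-0.97, adjusted p = 0.021; 0.11 without normal mouse 23917). Those that rose were Cebpb, a myeloid transcription factor (1.12, adjusted p = 0.0069; 0.056 with slide as a block over the 8 arrays), and Msr1, a scavenger receptor (1.69, adjusted p = 0.044; 0.25 without normal mouse 23912). Flt3 itself, whose probes differ in sign, differed by 0.67 at its brightest probe (adjusted p = 0.48).

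Transcripts of other cell types moved with the groups, and their part in the differences that follow was not tested except where a value is given. Genes of pancreatic acinar cells, which make digestive enzymes, stood highest in normal pancreas. Of 38 acinar genes tested, 31 fell and 1 rose, with a median difference of -5.99 against -0.07 over all genes. Their mean level ran from -3.17 to -2.49 in tumor and from 2.16 to 2.73 in normal pancreas, with no overlap. The elastase gene Cela2a lay at -7.22, -2.29, -7.20, -4.88 and -5.39 in tumor against 5.43, 5.05 and 5.55 in normal pancreas (difference -10.74, adjusted p = 2e-06). Reg1, a secreted protein of acinar cells, was not well above background in any tumor array and was at least 203-fold lower there (adjusted p = 2.1e-05). Such a bound replaces the dim group's level by the lowest signal well above background on each array, where that is the higher of both. The lipase gene Pnlip fell by 7.37 (adjusted p = 4.9e-09), the trypsinogen gene Prss2 by 8.02 (adjusted p = 3.9e-07) and the carboxypeptidase gene Cpb1 fell by 8.77 (adjusted p = 1.6e-08). Trypsinogen and elastase genes form families of near-identical copies, and a probe may read more than 1 of them. Of the insulin genes, Ins1 fell by 3.77 (adjusted p = 5.5e-05), while Ins2 differed by -0.14 and was not past the threshold (adjusted p = 0.94).

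Genes of antibody-secreting plasma cells and of neutrophils stood higher in tumor. Of 15 plasma cell genes, 10 rose and none fell (median 1.16), and the mean level ran from 0.71 to 1.41 in tumor and from -0.71 to -0.37 in normal pancreas. Jchain, the joining chain of secreted antibodies, lay at 4.52, 4.60, 5.14, 5.10 and 5.18 in tumor and at 0.50, 1.74 and -0.82 in normal pancreas (adjusted p = 0.0068). Mzb1, a chaperone of antibody-secreting cells, rose by 4.59 (adjusted p = 1.7e-05), Txndc5 by 2.32 and Derl3 by 2.67. Of 26 neutrophil genes, 13 rose and none fell (median 1.31), a count that was 8 without normal mouse 23917. S100a9, abundant in neutrophils and monocytes, lay between 1.21 and 2.37 in tumor and at 1.20, -2.60 and -6.64 in normal pancreas (adjusted p = 0.014; 0.10 as the highest over the alternatives), so that its spread among normal arrays exceeded that among tumor arrays. Of 20 B cell genes, 6 rose and 2 fell, and 3 rose without normal mouse 23917. Of 24 dendritic cell genes, 7 rose and 2 fell, and 4 rose without normal mouse 23912 or without 23917. Their mean level ran from 0.61 to 1.40 in tumor and from 0.08 to 0.54 in normal pancreas. Of 28 T and NK cell genes, 1 rose and 1 fell. Normal mouse 23912 stood apart on that list, at a mean of -0.24 against -1.72 and -2.14 in the other normal arrays, and Cd3d, a chain of the T cell receptor complex, lay at 2.37 there against -0.52 and -1.63. Jchain, S100a9, Cd3d, Ins2, Itgam and Spi1 were picked from their lists after their values had been seen.

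**Figure D2:**
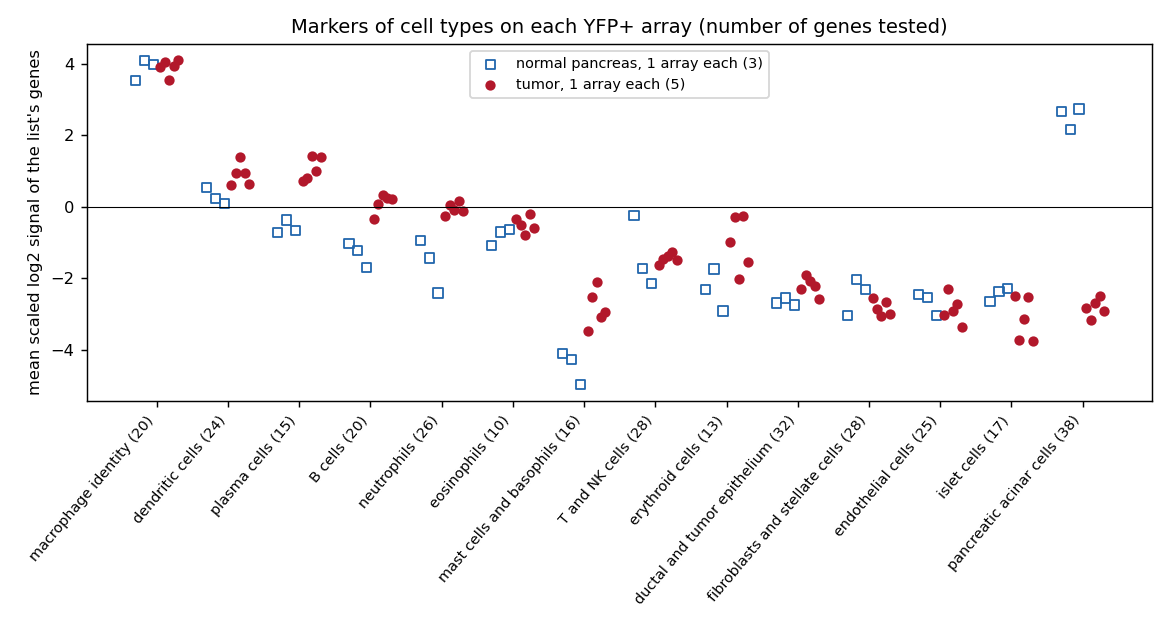
Mean level of each of 14 cell type marker lists (log2 signal relative to the array's 75th percentile) in each of the 8 YFP+ arrays, tumor and normal side by side. Acinar markers lie between 2.16 and 2.73 in the normal arrays and between -3.17 and -2.49 in the tumor arrays, while macrophage identity genes lie between 3.53 and 4.09 in both.

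Genes of glycolysis and of the response to low oxygen rose together in tumor YFP+ macrophages. Cells sense oxygen through prolyl hydroxylases that mark the HIF proteins for destruction. When oxygen is low, HIF accumulates and binds short DNA motifs, ACGTG or GCGTG, near genes for glucose uptake, glycolysis and vessel growth. Of 34 genes on this list, 26 rose and 1 fell, with a median difference of 1.24. The count that rose was between 20 and 26 over the alternatives. The first 250 bases upstream of the start in RefSeq promoter entries (build GRCm38.p6) are shown for 5 of the genes that rose, to let the motif be seen in place. They are written 5′ to 3′ along the gene, with each motif in capitals in either orientation (CACGT and CACGC are the reverse complements).

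Vegfa, chr17:46032378-46032627, minus strand: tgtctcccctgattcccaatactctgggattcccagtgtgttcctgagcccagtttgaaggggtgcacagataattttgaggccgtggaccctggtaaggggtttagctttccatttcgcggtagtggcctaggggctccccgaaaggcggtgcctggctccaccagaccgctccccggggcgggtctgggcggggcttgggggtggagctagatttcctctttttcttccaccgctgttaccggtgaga
Egln3, chr12:54203875-54204124, minus strand: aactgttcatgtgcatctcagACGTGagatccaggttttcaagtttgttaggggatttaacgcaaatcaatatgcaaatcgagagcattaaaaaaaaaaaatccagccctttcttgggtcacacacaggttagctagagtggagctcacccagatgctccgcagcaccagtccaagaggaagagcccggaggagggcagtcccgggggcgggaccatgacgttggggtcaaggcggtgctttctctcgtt
Adm, chr7:110627407-110627656, plus strand: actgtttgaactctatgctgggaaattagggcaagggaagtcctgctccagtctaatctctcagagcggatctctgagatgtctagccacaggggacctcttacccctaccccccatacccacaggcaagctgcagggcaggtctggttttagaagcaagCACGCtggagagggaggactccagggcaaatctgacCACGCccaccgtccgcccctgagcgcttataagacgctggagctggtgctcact
Slc2a1, chr4:119108495-119108744, plus strand: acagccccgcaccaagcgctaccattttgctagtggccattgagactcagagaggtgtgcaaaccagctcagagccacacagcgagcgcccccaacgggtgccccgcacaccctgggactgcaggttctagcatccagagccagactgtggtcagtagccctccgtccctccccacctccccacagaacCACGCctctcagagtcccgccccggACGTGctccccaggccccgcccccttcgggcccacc
Slc16a3, chr11:120948817-120949066, plus strand: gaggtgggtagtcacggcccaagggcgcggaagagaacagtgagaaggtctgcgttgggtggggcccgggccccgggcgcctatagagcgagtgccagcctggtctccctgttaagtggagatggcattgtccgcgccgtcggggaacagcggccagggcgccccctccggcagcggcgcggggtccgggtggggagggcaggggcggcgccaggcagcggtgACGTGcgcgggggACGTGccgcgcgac

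Slc2a1, Slc16a3 and Adm hold 2 motifs each in this window, and Egln3 holds 1 whose first base is at -229, counted from the gene's start. Vegfa, of which the entry farthest upstream of 2 was taken, holds none. Either motif occurs in 38.6% of all 32851 entries of the same length and in 41.5% of 27025 genes. Among list members with an entry, 23 of 25 that rose hold it (92%), as do 6 of 7 of the others (85.7%). A match in the window is a description of the letters and not of a bound site.

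Vegfa, the principal growth factor for blood vessels, lay at 3.16, 4.15, 3.57, 3.72 and 3.70 in the tumor arrays and at 0.30, -1.25 and -3.02 in the normal arrays. All tumor values were above all normal values, and the normal arrays were spread more widely than the tumor arrays. The difference was 4.98 ± 0.51 (SE), a 31.6-fold rise (adjusted p = 1.8e-05; probe at chr17:46154387-46154446, mm9). Slc2a1, the glucose transporter GLUT1, lay at 2.19, 2.57, 2.46, 2.49 and 2.62 in tumor and at -0.65, -0.70 and 0.04 in normal pancreas. Its values were tight in both groups, and the rise was 7.47-fold (2.90 ± 0.20, adjusted p = 3.6e-07). Slc16a3, which exports the lactate made by glycolysis, rose 4.76-fold (adjusted p = 5.6e-06). Hilpda, a lipid droplet protein induced by hypoxia, rose 21.1-fold (adjusted p = 3.7e-07), and Ndrg1, another hypoxia-induced gene, rose 8.47-fold (adjusted p = 5.1e-06). Egln3, one of the oxygen-sensing prolyl hydroxylases, lay between 2.36 and 2.98 in tumor and at 0.39, -2.11 and -2.79 in normal pancreas (adjusted p = 0.00059). Bnip3, a mitochondrial protein of mitophagy, rose by 2.15 (adjusted p = 9.2e-05), and Hif1a, the oxygen-regulated HIF subunit, by 2.18 (adjusted p = 0.0018). Adm, which encodes the vessel-dilating peptide adrenomedullin, was not well above background in any normal array and was at least 2.08-fold higher in tumor (adjusted p = 0.0040). Pfkfb4, a regulator of glycolytic flux, was the member that fell, by 0.81 (adjusted p = 0.010; 0.069 with slide as a block over the 8 arrays). Egln3, Adm, Bnip3 and Hif1a were picked after their values had been seen. For 3 of the 26 genes that rose (Eno1, Ero1a and Gapdh), the probe's listed chromosome is not that of the gene, and which copy they read is uncertain.

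**Figure D3:**
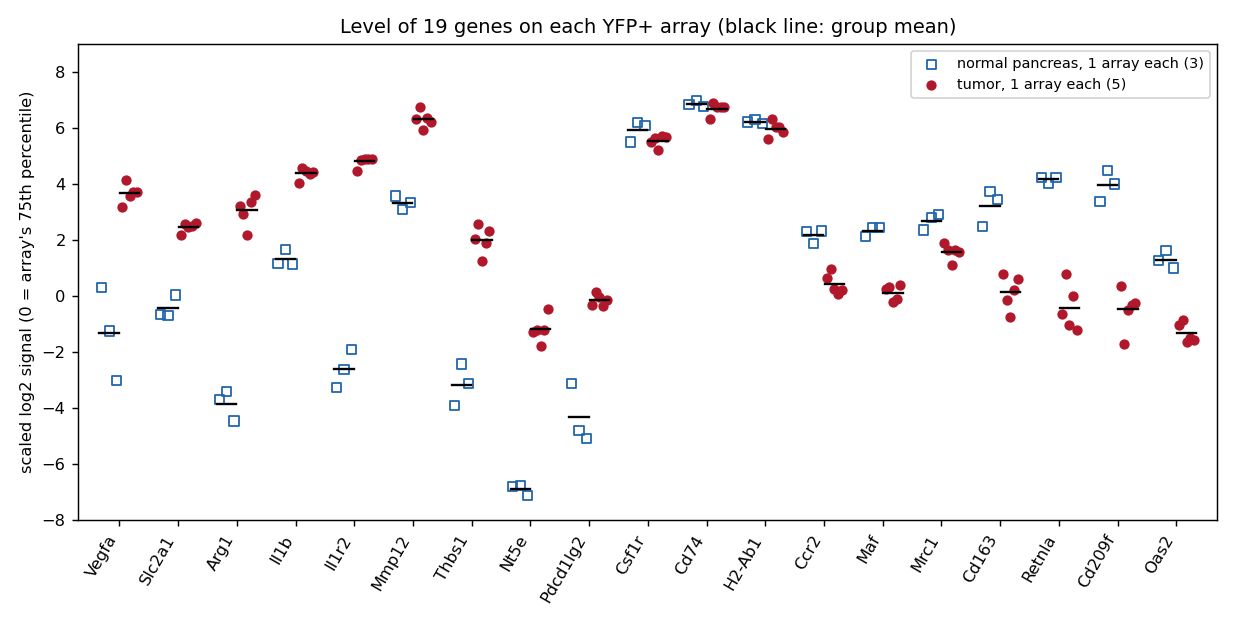
Levels of 19 genes (log2 signal relative to the array's 75th percentile) in each of the 5 tumor and 3 normal YFP+ arrays, with bars at the group means. Vegfa, Slc2a1, Arg1 and Il1r2 show tumor values above all normal values, Retnla, Cd163 and Cd209f the opposite, and Csf1r, Cd74 and H2-Ab1 overlap.

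Arginase and arginine transport genes rose. Of 12 genes on the list, 6 rose and none fell (median 1.04). Arg1, the arginase that splits arginine into ornithine and urea and thereby depletes it around T cells, lay at 3.22, 2.94, 2.17, 3.36 and 3.61 in tumor and at -3.69, -3.40 and -4.46 in normal pancreas. The groups were far apart relative to their spread, and the rise was 120-fold (6.91 ± 0.42, adjusted p = 1.3e-07; probe at chr10:24636194-24636253, mm9). Slc7a2, a transporter that brings arginine into the cell, rose 21.1-fold (adjusted p = 0.00014). Arg2, the mitochondrial arginase, was not well above background in any normal array and was at least 3.99-fold higher in tumor (adjusted p = 0.00037). Odc1, which turns ornithine into the polyamine putrescine, rose 3.45-fold (adjusted p = 0.00019). Nos2, the inducible nitric oxide synthase that competes for arginine, differed by 1.12 with an adjusted p of 0.053.

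**Figure D4:**
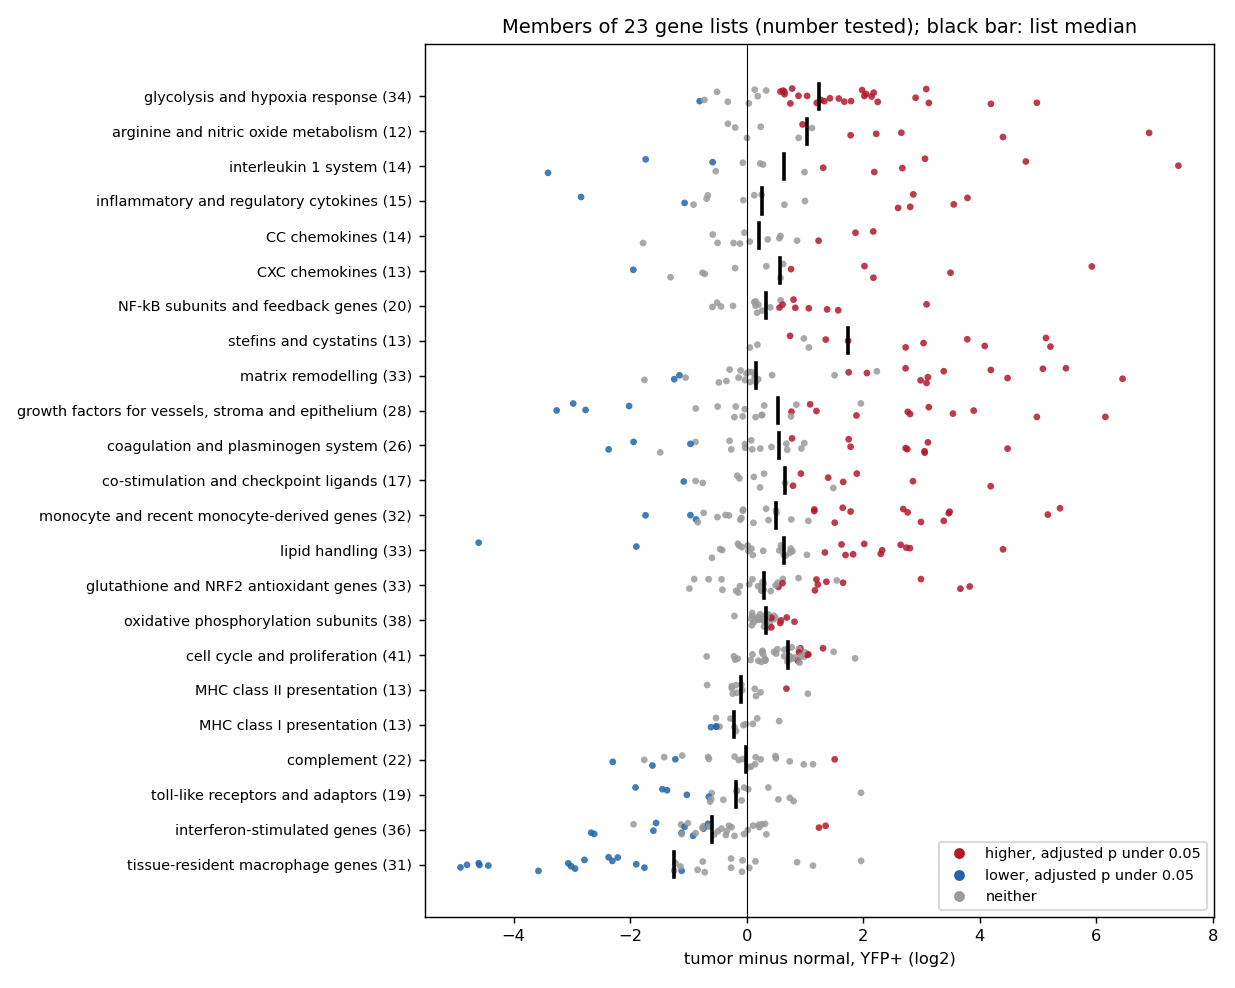
Log2 difference (tumor minus normal, YFP+) of each member of 23 gene lists, with a bar at the list median. The glycolysis and hypoxia list lies mostly above 0 with a median of 1.24, the tissue-resident macrophage list mostly below it with a median of -1.25, and the MHC class II list around it with a median of -0.09.

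The interleukin 1 system rose at the level of both ligands and inhibitors. Interleukin 1 alpha and beta signal through a common receptor, while IL1RN blocks that receptor and IL1R2 is a decoy that captures ligand without signalling. Of 14 genes on the list, 6 rose and 3 fell (median 0.64), and 1 fell without normal mouse 23917. Il1r2 lay at 4.48, 4.86, 4.91, 4.90 and 4.91 in tumor and at -3.28, -2.63 and -1.90 in normal pancreas, a 170-fold rise (7.41 ± 0.53, adjusted p = 4.6e-07; probe at chr1:40180014-40180073, mm9). Il1r2 is also on the neutrophil marker list, where 13 of 26 genes rose and it had the largest difference, and the part of neutrophil RNA in its level was not tested. Il1b lay at 4.05, 4.57, 4.48, 4.36 and 4.43 in tumor and at 1.15, 1.65 and 1.14 in normal pancreas, an 8.35-fold rise (adjusted p = 2.5e-08). Il1a, well above background on 1 of the 3 normal arrays, rose by 4.79 (adjusted p = 3.3e-07). Il1rn rose 6.38-fold (adjusted p = 2.8e-06). Il1rl1, the receptor for interleukin 33, fell by 3.41 at its brightest probe (adjusted p = 0.00028), with a log2 difference of -1.67 at its other probe.

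Secreted cytokines and chemokines changed in part. Of 15 other cytokine genes, 5 rose and 2 fell. Osm, a cytokine of the interleukin 6 family, rose by 3.79 (adjusted p = 0.00028), and Lif, of the same family, by 3.56 (adjusted p = 0.00032). Il23a, a subunit of interleukin 23, rose by 2.60 (adjusted p = 0.0022), and Csf1, the macrophage growth factor, by 2.81 (adjusted p = 0.00060). Il16, a T cell attractant, fell by 1.07 (adjusted p = 0.00045). Il6 lay between -1.63 and -0.30 in tumor and at -6.87, -2.21 and -3.27 in normal pancreas, and its call depended on the setting (adjusted p = 0.037; 0.18 without normal mouse 23912). Tnf lay between 1.72 and 2.42 in tumor and at 1.48, 1.86 and 1.299 in normal pancreas (difference 0.65, adjusted p = 0.070). Of 14 CC chemokines, 3 rose and none fell. Ccl4, which encodes MIP-1β, rose 4.51-fold (adjusted p = 0.00081), and Ccl17, a ligand of CCR4 on T cells, rose 3.65-fold (adjusted p = 0.00040). Ccl2, the principal monocyte attractant, differed by -0.23 (adjusted p = 0.66). Of 13 CXC chemokines, 5 rose and 1 fell. Cxcl2 and Cxcl3 attract neutrophils. Cxcl2 rose 4.52-fold (adjusted p = 0.0013), and Cxcl3 was at least 10.1-fold higher in tumor (adjusted p = 3.5e-05). Ppbp, the platelet basic protein, was at least 14.8-fold higher (adjusted p = 8.4e-07). Cxcl12, which retains cells that carry CXCR4, fell by 1.95 (adjusted p = 0.0072). Of 21 chemokine receptors, 9 rose and 1 fell. The one that fell was Ccr2, by which monocytes leave the marrow and enter tissue. It lay at 0.63, 0.95, 0.25, 0.09 and 0.23 in tumor and at 2.30, 1.87 and 2.32 in normal pancreas (adjusted p = 0.0024). Ccrl2, which binds the attractant chemerin, rose 5.04-fold (adjusted p = 0.00011). Several receptors that rose are also borne by lymphocytes, dendritic cells or eosinophils, among them Ccr9, which is also on the dendritic cell list (3.18, adjusted p = 0.0066), and Ccr3 (3.29, adjusted p = 0.0043; 0.063 with slide as a block over the 8 arrays).

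Genes that act on the extracellular matrix and on clotting rose in larger numbers than fell. Of 33 matrix remodelling genes, 12 rose and 2 fell, while the median of the list was 0.16. Mmp12, the macrophage elastase, lay at 6.30, 6.76, 5.93, 6.37 and 6.22 in tumor and at 3.57, 3.10 and 3.33 in normal pancreas, a 7.93-fold rise (adjusted p = 3.1e-05; probe at chr9:7352935-7352994, mm9). Mmp14, a membrane-bound collagenase, rose 10.4-fold (adjusted p = 3.7e-07), Mmp13, a secreted collagenase, by 4.19 (adjusted p = 3e-06), and Mmp8, the neutrophil collagenase and a member of that marker list, was at least 19.8-fold higher in tumor (adjusted p = 1.7e-05). Of 26 genes of clotting and plasminogen, 9 rose and 3 fell, and 5 rose without normal mouse 23916. F7 and F10, which follow each other in the extrinsic clotting pathway, rose 8.32-fold (adjusted p = 0.00010) and 3.44-fold (adjusted p = 0.0017). Pros1, the cofactor that restrains clotting, fell by 1.94 (adjusted p = 0.0058). Of 34 genes of structural matrix such as collagens, 4 rose and 1 fell, beside 12.3% of all genes tested that passed the threshold. The median of that list was -0.36, and 9 of its 34 differences were above 0. The mean level of 28 fibroblast markers was -3.06 to -2.55 in tumor and -3.04 to -2.05 in normal pancreas.

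Growth factors for vessels, stroma and epithelium were split. Of 28, 11 rose and 4 fell, and 2 fell without normal mouse 23916 or without 23917. Besides Vegfa, Pgf, a relative that binds the VEGF receptor 1, rose 14.9-fold (adjusted p = 5e-07). Thbs1, the matrix glycoprotein thrombospondin 1, which restrains vessel growth, lay at 2.03, 2.56, 1.24, 1.91 and 2.32 in tumor and at -3.92, -2.43 and -3.14 in normal pancreas, a 36-fold rise (adjusted p = 4.9e-06). Inhba, whose product dimerises to activin A, was not well above background in any normal array and was at least 15-fold higher in tumor (adjusted p = 3.7e-07). Hbegf, a ligand of the EGF receptor, rose 2.29-fold (adjusted p = 0.00038). Spp1, which encodes osteopontin, lay between 2.45 and 3.92 in tumor and at 2.21, -0.92 and -2.16 in normal pancreas (difference 3.54, adjusted p = 0.0044). Igf1, a growth factor that resident macrophages secrete, fell by 2.98 (adjusted p = 0.0010), with tumor values between -2.10 and -0.25 and normal values of 1.15, 1.81 and 1.51, and its 5 probes ran from -4.68 to -0.52. Ccn1, a matricellular protein, fell by 3.26 (adjusted p = 0.0045).

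Surface molecules that restrain T cells rose in part. Of 17 genes of co-stimulation and checkpoint ligands, 7 rose and 1 fell (median 0.66). Pdcd1lg2, which encodes the PD-1 ligand PD-L2, lay at -0.30, 0.14, -0.04, -0.37 and -0.15 in tumor and at -3.11, -4.802 and -5.09 in normal pancreas, where 1 of 3 arrays was well above background (adjusted p = 0.00041). Cd274, which encodes PD-L1, rose 3.71-fold (adjusted p = 0.00020). Nectin2, a ligand of TIGIT and CD226, rose 7.24-fold at its brightest probe (adjusted p = 5.3e-07), with a log2 difference of 1.46 at its other probe. Cd80, which binds both CD28 and CTLA-4, rose by 1.66 at its brightest probe (adjusted p = 8.1e-05), while another of its probes fell by 0.77, so the direction of the gene is uncertain (adjusted p = 0.089 for the mean of its probes). Icosl, the ligand of ICOS, fell by 1.08 (adjusted p = 0.011; 0.080 with slide as a block over the 8 arrays). Of 22 genes that make or sense extracellular adenosine, 5 rose and 1 fell. Nt5e, which encodes CD73 and makes adenosine from AMP, lay at -1.28, -1.21, -1.78, -1.21 and -0.47 in tumor and was not well above background in normal pancreas. It was at least 11.4-fold higher in tumor (adjusted p = 1.6e-08; probe at chr9:88266616-88266675, mm9). Entpd3, an ectonucleotidase, was at least 5.83-fold higher (adjusted p = 3.6e-07).

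Antigen presentation genes passed the threshold in part, beside 12.3% of all genes tested. Of 13 genes of MHC class II presentation, 1 rose and none fell (median -0.09). Cd74, the invariant chain, lay at 6.32, 6.91, 6.75, 6.74 and 6.75 in tumor and at 6.83, 6.99 and 6.76 in normal pancreas (difference -0.17, adjusted p = 0.64). H2-Ab1 differed by -0.25 (adjusted p = 0.43) and Ciita, the master regulator of the class II genes, by -0.26 at its brightest probe (adjusted p = 0.51), with -1.60 at the lowest of its 3 probes. The one that rose was Ifi30, a thiol reductase of the endosome (0.68, adjusted p = 0.0031). Of 13 MHC class I genes, 3 fell by 0.52 to 0.61 (H2-D1, H2-Q7 and H2-T23), and none of those calls held when normal mouse 23916 was left out. The class I genes H2-D1, H2-Q7 and H2-T23 belong to a family of near-identical copies.

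Genes of tissue-resident macrophages fell. Of 31 on the list, none rose and 16 fell (median -1.25), with 11 to 19 falling over the alternatives. The mean level of the list ran from -0.10 to 0.48 in tumor and was 1.38, 2.55 and 2.13 in normal mice 23912, 23916 and 23917, so that mouse 23912, the array with the highest T and NK cell markers, was the nearest to the tumor arrays. Cd163, a receptor for haptoglobin-bound hemoglobin, lay at 0.79, -0.14, -0.74, 0.21 and 0.63 in tumor and at 2.47, 3.72 and 3.44 in normal pancreas (difference -3.06 ± 0.68, adjusted p = 0.0078). Folr2, a folate receptor, fell by 2.79 (adjusted p = 0.0030), and Gas6, a bridge to apoptotic cells, by 1.90 (adjusted p = 0.00059). Maf, a transcription factor of resident macrophages, lay at 0.24, 0.31, -0.22, -0.10 and 0.39 in tumor and at 2.11, 2.44 and 2.46 in normal pancreas (adjusted p = 9.8e-05). Fcrls, an Fc receptor-like protein, fell by 2.40 (adjusted p = 9.5e-05). Lyve1, a hyaluronan receptor, fell by 3.58 (adjusted p = 0.021; 0.11 without normal mouse 23916), and Timd4, a receptor for phosphatidylserine, fell by 2.95 (adjusted p = 0.0094; 0.066 without normal mouse 23916). Mrc1, the mannose receptor CD206, fell by 1.12 (adjusted p = 0.046; 0.16 without normal mouse 23917).

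Genes used as marks of monocytes and of alternative activation did not move as a block. Of 32 genes of monocytes and recent monocyte-derived cells, 13 rose and 3 fell (median 0.51). Neutrophil marker genes moved the same way (13 of 26 rose), and their part in this count was not tested. Of 19 genes of alternative activation, 7 rose and 3 fell (median 0.56). Within that list, Arg1 and Chil3, a chitinase-like protein, rose by 6.91 and 5.38 (adjusted p = 1.3e-07 and 4.9e-06). Retnla, which encodes the interleukin 4-induced protein RELMα, lay at -0.63, 0.80, -1.05, -0.01 and -1.22 in tumor and at 4.24, 4.03 and 4.23 in normal pancreas, a 24.1-fold fall (-4.59 ± 0.40, adjusted p = 3.7e-06; probe at chr16:48844447-48844506, mm9).

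Receptors for microbes and debris moved both ways. Of 19 C-type lectins of myeloid cells, 7 rose and 7 fell, and 4 fell without normal mouse 23912 or without 23917. Clec4e (Mincle) and Clec4n (Dectin-2), which sense fungal and mycobacterial glycans, rose by 3.49 (adjusted p = 0.00010) and 3.36 (adjusted p = 0.00011). Clec5a was at least 5.83-fold higher in tumor (adjusted p = 0.00015). Cd209f, of the DC-SIGN family, lay at 0.36, -1.71, -0.48, -0.33 and -0.25 in tumor and at 3.39, 4.48 and 4.00 in normal pancreas (adjusted p = 6e-05). Its relative Cd209g fell by 4.803 (adjusted p = 0.00020), and Cd209b was at least 7.97-fold lower (adjusted p = 1.7e-05). These genes are close paralogs and a probe may read more than 1 of them. Of 24 scavenger and apoptotic cell receptors, 5 rose and 6 fell, and 2 or 3 rose without normal mouse 23912 or 23917. Olr1, a receptor for oxidised lipoprotein, was at least 5.75-fold higher (adjusted p = 0.00021), and Mfge8, a bridge to apoptotic cells, rose 4.51-fold (adjusted p = 3.7e-07). Cd36, a fatty acid and lipoprotein receptor, fell by 4.60 (adjusted p = 0.0035), and the collectin Colec12 was at least 6.71-fold lower (adjusted p = 0.0016). Of 19 toll-like receptors and adaptors, none rose and 5 fell, none of which was past the threshold without normal mouse 23916.

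Interferon-stimulated genes were lower in tumor in part. Of 36, 2 rose and 9 fell (median -0.60), and 3 fell without normal mouse 23912. Oas2, a sensor of viral RNA, lay at -1.05, -0.87, -1.63, -1.48 and -1.58 in tumor and at 1.27, 1.62 and 0.998 in normal pancreas (difference -2.62, adjusted p = 0.00021). Usp18, which limits interferon signalling, fell by 1.60 (adjusted p = 0.0063), and Mx1, an antiviral GTPase, fell by 2.67 (adjusted p = 0.010; 0.070 without normal mouse 23912). Isg20, an exonuclease, rose by 1.24 (adjusted p = 0.0019).

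Among transcription factors of signal-dependent genes, 8 of 24 AP-1 and early growth response genes rose and 3 fell. Maff, a small MAF protein, rose by 5.42 (adjusted p = 1.2e-06), with 1 of 3 normal arrays well above background. Fosl1 was at least 3.52-fold higher (adjusted p = 1.7e-06). The orphan nuclear receptor Nr4a3 lay between 0.51 and 1.54 in tumor and at -3.31, -2.93 and -4.12 in normal pancreas (adjusted p = 3.1e-05), and Nr4a2 rose 6.47-fold (adjusted p = 1.8e-05). Of 20 NF-kB subunits and feedback genes, 8 rose and none fell, a count that was 5 without tumor mouse 23548 or normal mouse 23916 and 3 without normal mouse 23917. Tnfaip3, which encodes the feedback inhibitor A20, rose 2.60-fold (adjusted p = 0.0018), and Rel, an NF-kB subunit, 2.97-fold (adjusted p = 0.0031). Of 35 lineage transcription factors, 8 rose and 5 fell. Tfec rose 5.04-fold (adjusted p = 0.00022) and Ahr, the aryl hydrocarbon receptor, 3.75-fold (adjusted p = 0.0012). Zeb2, a factor of macrophage identity, fell by 1.19 (adjusted p = 0.0069).

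Antioxidant, lipid and protease inhibitor genes rose in part. Of 33 genes of glutathione and the NRF2 response, 10 rose and none fell. Gsr, the glutathione reductase, had the smallest adjusted p on the list, with levels of 2.26, 2.23, 1.97, 2.29 and 2.53 in tumor and -0.57, -0.76 and -0.87 in normal pancreas (7.96-fold, adjusted p = 2.5e-08). Me1, the malic enzyme, had the largest difference, 3.83, with a call that depended on the setting (adjusted p = 0.0038; 0.12 as the highest over the alternatives). Txnrd1, the thioredoxin reductase, rose 3.15-fold (adjusted p = 8.9e-05), and Slc7a11, the cystine transporter, was at least 4.22-fold higher (adjusted p = 0.00025). Of 33 lipid handling genes, 11 rose and 2 fell. Scd2, a fatty acid desaturase, rose 4.93-fold (adjusted p = 8.1e-05), Dgat1, which makes triglyceride, rose 4.05-fold (adjusted p = 7.2e-05), and the lipoprotein lipase Lpl fell by 1.89 (adjusted p = 7.3e-05). Of 13 stefins and cystatins, which inhibit cysteine proteases, 9 rose and none fell (median 1.74). Csta2 rose by 5.14 (adjusted p = 0.00040), and Stfa2 was at least 6.25-fold higher (adjusted p = 1.3e-05). These are near-identical copies that are abundant in neutrophils, of whose 26 marker genes 13 rose. Of 29 genes of lysosome acidification and membrane 3 rose and 1 fell, and 1 rose without normal mouse 23916. Of 15 cathepsins, 3 rose and 1 fell. Ctsk lay at 3.23, 2.21, 0.01, 1.79 and 2.94 in tumor, with mouse 23550 lowest, and at -6.13, -4.44 and -7.02 in normal pancreas, where 1 of 3 arrays was well above background (7.89 ± 0.99, adjusted p = 0.00011). Of 38 subunits of oxidative phosphorylation 7 rose, with 1 past the threshold when normal mouse 23912 or 23917 was left out. Of 41 proliferation genes 6 rose, with none past it without normal mouse 23916 or 23917, and Mki67, a mark of cycling cells, differed by 0.73 (adjusted p = 0.066).

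Among the largest changes over all genes, several fell on genes not yet described. Plet1, a surface protein, lay at 4.31, 4.44, 4.62, 4.51 and 4.62 in tumor and at -2.52, -3.07 and -2.29 in normal pancreas (140-fold, adjusted p = 3e-11). Adamdec1, a secreted metalloproteinase-like protein of macrophages and dendritic cells, rose 87.7-fold (adjusted p = 3e-11), with tumor values from 2.83 to 3.26 and normal values from -3.50 to -3.20. Htr7, a serotonin receptor, was at least 38.2-fold higher at its brightest probe (adjusted p = 4.9e-09), with a log2 difference of 3.82 at its other probe. The leptin receptor gene Lepr was at least 16.2-fold higher (adjusted p = 9.8e-05) at its brightest probe, with 1.39 on the log2 scale at the lowest of its 3 probes. Mcpt2 and Mcpt1, proteases of mucosal mast cells, were at least 34.8-fold (adjusted p = 4.9e-07) and 15.8-fold (adjusted p = 2.2e-05) higher. Of 16 mast cell and basophil markers, 4 rose and 1 fell, the latter being Il1rl1 (-3.41 at its brightest probe). The mean level of these 16 markers was -3.47 to -2.10 in tumor and -4.97 to -4.10 in normal pancreas. Cdh1, which encodes E-cadherin, was at least 10.1-fold higher (adjusted p = 3.1e-08), and Itgae, the integrin that binds E-cadherin and a member of the dendritic cell list, rose by 5.57 (adjusted p = 2.3e-06). Of 32 ductal and tumor epithelium markers 7 rose and 2 fell. Epcam (2.30, adjusted p = 0.00079) and Krt19 (2.65, adjusted p = 0.0018) were among those that rose. Those that fell were Dmbt1 (-6.89) and Tff2 (-5.04). Antibody light-chain segments were also among the largest rises, with Igkv4-72 at 6.29 (adjusted p = 4.3e-05), but such segments resemble each other and their probes may read several. Outside the acinar list, the largest falls were those of Defa-rs4, a defensin-related gene, at -7.24 (adjusted p = 0.00094), with mouse 23550 above the other tumor arrays at -2.93, and of Dmbt1, a mucin-like glycoprotein, at -6.89 (adjusted p = 0.00015). Other genes that fell were Tff2, a trefoil peptide, at -5.04 (adjusted p = 0.00011), and Tslp, an epithelial cytokine, at least 13.6-fold lower (adjusted p = 1.8e-06). Cd226, an activating receptor on lymphocytes, was 27.4-fold or more lower at its brightest probe (adjusted p = 1.9e-05), with a log2 difference of -2.13 at its other probe. Some genes given without a bound were measured on part of a group: Ccr3, Csta2, Il23a and Lif were well above background on 1 of 3 normal arrays and Osm, Mmp13, Il6 and S100a9 on 2. Among those that fell, Cpb1 and Cd209g were so on 1 of 5 tumor arrays, Cela2a and Dmbt1 on 2 and Cd36 on 4. Acinar markers were lower in the same tumor arrays, and their part in these falls was not tested. The falls outside the acinar list were singled out after the values had been seen.

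The same contrast in YFP- macrophages, whose samples carry the same mouse numbers, had 3908 genes past the threshold (16.1% of genes tested). Of the calls in YFP+ cells, 2050 (68.8%) were also called in YFP- cells, which is 52.5% of the calls there, and 2046 of them had the same direction. The 2 contrasts share mouse numbers and slides. For Arg1 the difference was 6.91 in YFP+ and 7.09 in YFP- cells, for Vegfa 4.98 and 4.68, for Il1r2 7.41 and 7.90, for Retnla -4.59 and -4.15, and for Cd163 -3.06 and -2.35. A test of the difference between both tumor effects passed the threshold at 25 genes (0.103%), 10 of which were also called in YFP+ cells, and 1446 genes had an unadjusted p under 0.05. The difference (YFP+ effect minus YFP- effect) was negative at 16 of the 25 and positive at 9. Efna5, an ephrin, rose by 3.92 in YFP- cells and was not well above background in any YFP+ array (difference of effects -3.99). Thbs2, a matrix glycoprotein of stromal cells, behaved likewise, with a rise of 3.50 in YFP- cells and a difference of effects of -3.90, as did Ednra, an endothelin receptor (-4.49). The probes of Efna5, Thbs2 and Ednra passed the filter through YFP- arrays alone. Their YFP+ difference is one between background signals, so the test cannot compare measured effects in both populations. Of 28 fibroblast markers, 7 rose in YFP- cells and 1 in YFP+ cells, and none passed the test of the difference. Among the positive differences, the largest was that of ENSMUST00000103390, a transcript without a gene name here, which rose by 8.09 in YFP+ cells and differed by -0.60 in YFP- cells (difference of effects 8.68, adjusted p = 0.0058). P4htm, a transmembrane prolyl hydroxylase, rose by 2.48 in YFP+ cells and fell by 2.74 in YFP- cells (adjusted p of the difference = 0.022). Both were singled out after the values had been seen. Cstdc4, a stefin, rose in both, by 3.04 in YFP+ and 6.70 in YFP- cells (adjusted p of the difference = 0.022). The number of genes with a difference of effects was 10 or 11 when any 1 of the 3 normal YFP+ arrays was left out, with the YFP- array of that mouse kept. Mzb1 rose by 4.59 in YFP+ and 1.75 in YFP- cells and Derl3 by 2.67 against 0.24, with adjusted p of 0.19 and 0.11 for the difference of effects.

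**Figure D5:**
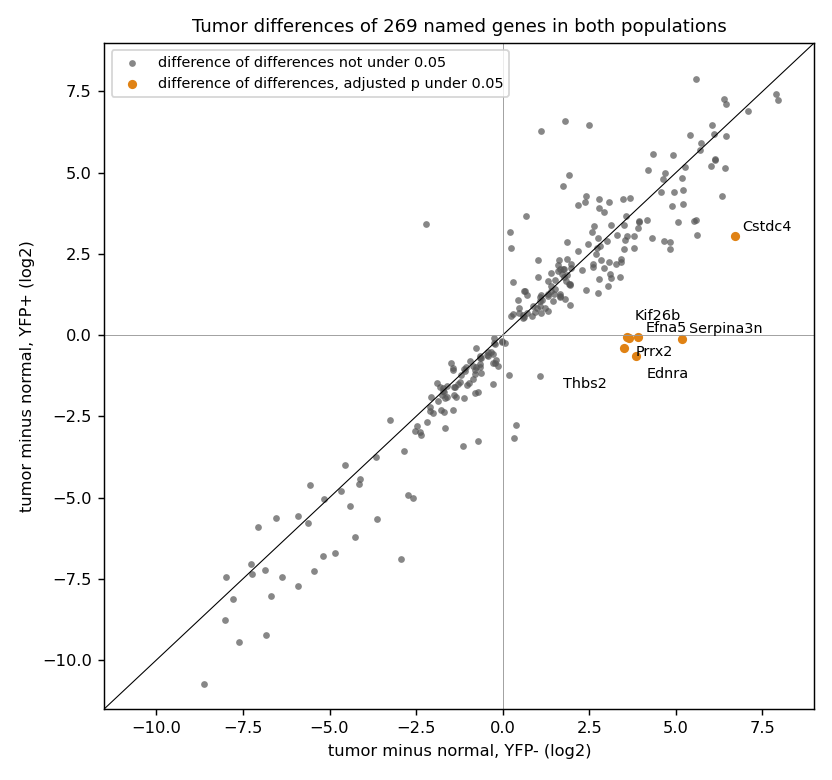
Tumor minus normal log2 difference in YFP- macrophages (horizontal axis) against that in YFP+ macrophages (vertical axis) for the 269 named genes. Most points lie near the diagonal, such as Arg1 at 7.09 and 6.91, while genes such as Efna5 and Thbs2 lie at 3.92 and 3.50 on the horizontal axis and near 0 on the vertical one. Neither Efna5 nor Thbs2 was well above background in any YFP+ array.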

How the data were processed

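RNA of FACS-sorted macrophages was isolated, amplified and labelled with Cy5 by the authors, per the labels' protocols, and hybridised to 1-colour Agilent arrays on 4 slides of 4. Per the file headers, the deposited scanner files give each spot's intensity as processed red signal, background-subtracted by Feature Extraction 11.5.1.1. The deposited value table holds log2 values and served as an alternative. Here, log2 processed signal minus each array's 75th percentile was used, without control spots and outlier spots. A probe was kept if 3 or more of the 16 arrays measured it well above background (30562 probes, 254 of them with a missing value on some array, which the fit drops), and the brightest probe stood for each of 24275 genes, 4955 of which had several. limma 3.58.1 (lmFit, eBayes; R 4.3.3) fitted 4 group means over 16 arrays, with two-sided tests and Benjamini-Hochberg adjustment at 0.05, and was tested on simulated data. Python 3.11.15, numpy 2.4.6, pandas 2.3.3 and matplotlib 3.10.9 were used for tables and plots.

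A gene's bound ("at least N-fold") is the brighter group's mean against the dimmer group's mean of, per array, the higher of the lowest signal among probes well above background and the probe's own. Of 39429 probes, 28330 were named by accession, 2204 by symbol and 174 by synonym through the RefSeq table, and 8721 kept the file's name, which can be old. Probe positions are mm9, per the file headers. Members and the 52 gene lists were chosen with earlier results of these data known. Named genes are the 12 largest rises and the 12 largest falls with groups that do not overlap and detection on every array of the brighter group, up to 4 members per list and direction by smallest adjusted p (or 2 where none passed), a fixed key list, and up to 6 genes by the difference of effects. Other genes are said to be picked later, except Nos2 and Me1, which this rule did not select either. Some named genes are not reported here. The number of arrays limits the precision. Alternatives were the background correction, the scaling, the deposited values, the filter, the arrays in the fit, slide or mouse number as a block, array weights, averaging probes and leaving out each array. The tumor and normal groups share no mouse number. Across YFP+ and YFP- arrays of the same number, deviations from the group means correlated at -0.29 to 0.31 and the consensus correlation was 0.029. The mouse was not in the main fit.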

Additional observations from a re-analysis of the deposited data

Results flagged for a closer look

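In groups of 5 tumor YFP+ arrays, 21 of 267 genes had 1 array far from the others by Dixon's test, which flags about 1 in 20 groups by chance. Tumor mouse 23550 was that array for 7 of them. It was low for Apoc2 (2.11), Cd68 (3.42), Fcgr4 (2.92), Ly96 (-1.92) and Slc48a1 (1.54), which macrophages express, and high for Defa-rs4 (-2.93) and Ifi205 (1.49). Mouse 23547 was low for Cd74 (6.32), Il1r2 (4.48) and Prss1 (-2.88) and high for Serping1 (-1.10). Mouse 23548 was low for the acinar lipase gene Cel (-3.10) and high for Nr4a3 (1.54) and Tgfb2 (-6.24). Mouse 23551 was low for Cpb1 (-5.35) and Rem1 (-7.25) and high for Tslp (-6.02). These values, and that of Tgfb2, lay below the lowest signal well above background on their arrays (-4.93 for mouse 23551, -4.78 for 23548). Mouse 23677 was high for Cox5a (3.74), Cstdc4 (0.88) and Il6 (-0.30) and low for Lcn2 (1.48).

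The tumor effect differed between YFP+ and YFP- macrophages at 7 named genes, by limma's test of the difference. The difference (YFP+ effect minus YFP- effect, log2) was -3.66 for Cstdc4, -4.49 for Ednra, -3.99 for Efna5, -3.65 for Kif26b, -3.72 for Prrx2, -5.28 for Serpina3n and -3.90 for Thbs2. Except for Cstdc4, these genes were not well above background in any YFP+ array. Their probes passed the filter through YFP- arrays alone, so the test set a YFP- effect against background signals.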

How the results depend on the processing

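The numbers of genes past the threshold, higher and lower in tumor stayed within 1.5 times of 2978, 1394 and 1584 under most alternatives fitted. The exceptions were array weights (4505 past the threshold, 2544 lower) and leaving out normal mouse 23916 or 23917 (993 or 997 lower). Leaving out any other YFP+ array gave 1091 to 1424 lower. Of the 249 named genes called, 175 kept their call under every alternative that could be fitted. With the mouse number as a replicate block, 2992 genes passed; the tumor and normal groups share no number, so this block pairs only YFP+ with YFP- arrays. In YFP- cells array weights gave 9345 genes. The difference of effects gave 10 genes with detection on every array, 8 with slide as a block, 354 with array weights and 10 to 25 with 1 YFP+ array left out, against 25. No scaling moved the median of all genes by over 0.1. The medians of some lists moved by more than the spread of the arrays. Within slide 1 (1 tumor and 1 normal YFP+ array, as on slides 2 and 3) they were -1.999 for resident macrophage genes, 1.29 for arginine, 1.003 for interleukin 1, 1.34 for chemokine receptors, -0.28 for scavenger receptors, 0.23 for coagulation and 0.77 for ductal markers. Within slide 2 they were 0.94 for cytokines, 0.87 for CC chemokines, 1.31 for CXC chemokines, 0.94 for matrix remodelling, 0.49 for oxidative phosphorylation, 0.15 for iron, 0.29 for adenosine, 0.18 for colony-stimulating factor and FLT3 receptors, 1.83 for plasma cells and 0.53 for erythroid cells. Within slide 3 they were -1.96 for resident macrophage genes, 2.02 for chemokine receptors, 0.43 for lipid handling, 3.06 for mast cells, 0.94 for erythroid cells and 0.023 for MHC class I, whose sign reversed. MHC class I was -0.42 with quantile normalization and -0.42 with the deposited values. With normexp background, chemokine receptors were at 0.59, acinar markers at -5.33 and erythroid markers at 0.91. Without a filter on dim probes, interleukin 1 was at 0.27 and erythroid markers at 0.98, and with detection on every array interleukin 1 was at 0.99. The cause of these shifts was not tested. With 1 array left out, resident macrophage genes ranged from -1.89 to -1.005, chemokine receptors from 0.93 to 1.41 and the receptor list of colony-stimulating factors and FLT3 from -0.24 to 0.37. The 3 normal arrays limit the precision, and 124 calls have a normal group and 121 a tumor group with no array well above background.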
